A study of Rattus norvegicus with 13 samples.

Results

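The 159 windows described here are stretches of 1000 bp of the rat genome in which the methylated DNA signal of sperm was at least 4 times higher in the DDT lineage than in the control lineage. They were chosen from the measured values of 5 of the 7 sperm libraries, among 2618741 windows on chromosomes 1 to 20 and 2782040 windows in all. Signal is given as CPM, the counts of a window per 1000000 counts of its library. D stands for the mean CPM of DDT sperm replicates 1 to 3 and K for the mean CPM of control sperm replicates 1 and 2. A window was taken when D was at least 0.2 CPM and at least 4 times K. Control sperm replicate 3, DDT sperm replicate 4 and all 6 morula libraries took no part in the choice. Every test between the lineages that was run here uses only libraries among these 8. The authors' deposited p-values for sperm, given below, also draw on libraries of the choice.

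The series holds 13 libraries from outbred Hsd:Sprague Dawley SD rats: 3 of control morulae, 3 of DDT morulae, 3 of control sperm and 4 of DDT sperm. Pregnant females of generation F0 were injected with the insecticide DDT (dichlorodiphenyltrichloroethane), or in the control lineage with its vehicle dimethyl sulfoxide, on embryonic days 8 to 14, and later generations received nothing. Sperm was taken from the cauda epididymis of F3 males, in a colony whose animals were aged to 1 year, and morulae are pooled embryos grown in culture after single sperm heads of either lineage were injected into eggs. The eggs came from superovulated Sprague Dawley females of 6 to 12 weeks, for which the labels give no lineage, and the embryo libraries also hold maternal DNA. No label says that libraries of a group came from separate animals, and p-values therefore measure only the spread between these samples.

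MeDIP-seq enriches DNA fragments with an antibody against 5-methylcytosine and counts them along the genome. Signal in a window depends on how methylated its CpG sites are, on how many it has, and on whether the DNA is there to be precipitated. Sperm DNA is densely methylated over most of the genome. After fertilisation the paternal genome loses much of this methylation during cleavage, and imprinted regions and some repeats are known to keep theirs. A mark carried from sperm to later generations would have to pass through this phase, which is why sperm and morulae of both lineages were compared.

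Library totals ranged from 30386626 to 193750804 counts. Control sperm replicate 3 and DDT sperm replicate 4 were the shallowest and stood apart from the other sperm libraries. A chi-square per degree of freedom, which is near 1 for pure counting noise, was 2.19 between control sperm replicates 1 and 2, but 6.12 and 6.64 between either of these and replicate 3. In DDT sperm it was 1.54 to 2.01 among replicates 1 to 3 and 4.67 to 5.57 between these and replicate 4. The only sperm libraries outside the choice are thus the ones that differ most from the rest, at a depth where 3 counts are worth 0.0987 CPM (control replicate 3) and 0.0891 CPM (DDT replicate 4). Results that use them are given with and without them.

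As the choice required, the windows were high in 3 DDT sperm libraries and low in 2 control ones. D had a median of 0.335 CPM, with a lowest value of 0.20 and a highest of 4.71, and K had a median of 0.0638 CPM, from 0 to 1.16. Over all windows of chromosomes 1 to 20 the median was 0.263 CPM for D and 0.272 CPM for K, so D was somewhat above and K far below the usual level. Most windows lay close to the limits, with 98 of 159 under a 5-fold ratio and 116 of 159 under 0.5 CPM, while 27 reached 8-fold, 5 of them with no count in control sperm replicates 1 and 2. Just inside the limit were a window of chromosome 5 at 161631001 to 161632000, with a D over K of 4.002, and one of chromosome 8 that starts at 107017001, with 4.005. Just outside were a pair of chromosome 1 windows, starting at 212883001 (3.9996) and at 100297001 (3.996). In the authors' deposited table for sperm, 9 of 158 windows with a value had an adjusted p under 0.05, against 0.00119% of all windows, from libraries that include those of the choice. A further 786 windows had a ratio of at least 3 and under 4. The mirrored rule, with the lineages exchanged, took 174 windows.

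**Figure D1:**
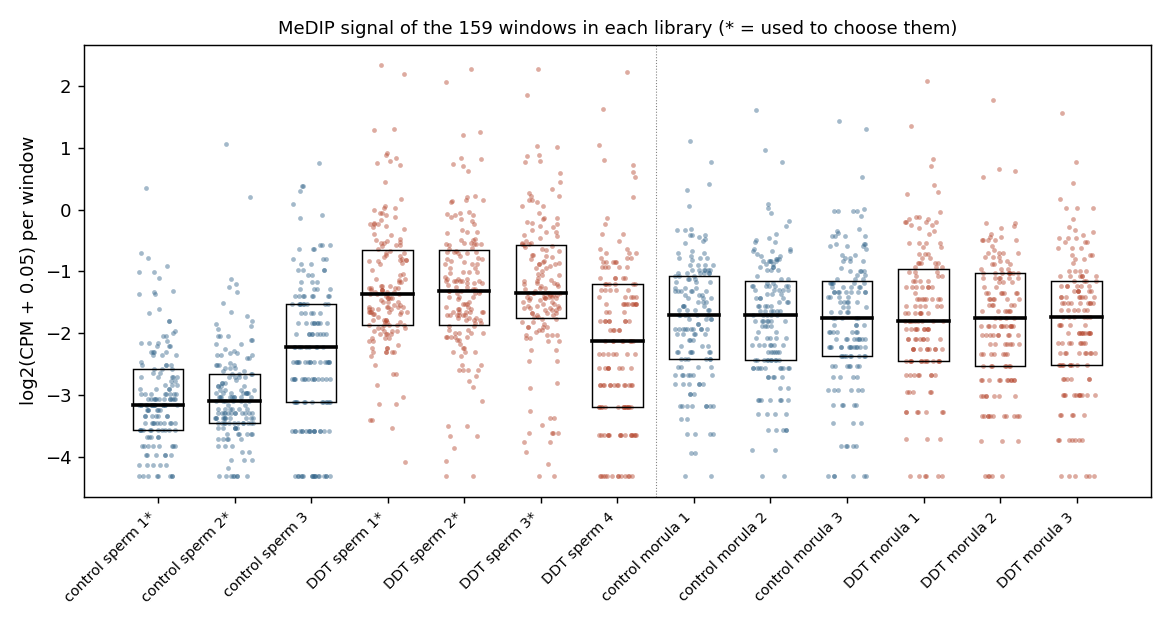
Signal of the 159 windows in each of the 13 libraries, as log2(CPM + 0.05) per window (1 point per window, thick line the median, box the quartiles, red DDT lineage, blue control lineage, asterisks the libraries used for the choice). The used libraries are far apart by construction, while control sperm 3 and DDT sperm 4 (medians of 0.165 and 0.178 CPM) and the 6 morula libraries (medians of 0.238 to 0.258 CPM) lie close together.

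The libraries that did not choose the windows lay between D and K. Control sperm replicate 3 had a median of 0.165 CPM over the 159 windows, against 0.0622 and 0.0671 CPM in control replicates 1 and 2, and it exceeded both of them in 106 windows. DDT sperm replicate 4 had a median of 0.178 CPM, against 0.339, 0.353 and 0.343 CPM in DDT replicates 1 to 3, and it was below all of them in 96 windows. Medians in morulae were 0.258, 0.255 and 0.245 CPM for control replicates 1 to 3 and 0.238, 0.245 and 0.250 CPM for DDT replicates 1 to 3. In 154 windows both morula means were above K, and in 110 both lay between K and D. The choice itself favours such a place, as K and D are its extremes, and these counts were not taken over all windows. Over all windows of chromosomes 1 to 20 the medians were 0.197 CPM in control sperm replicate 3 and 0.178 CPM in DDT sperm replicate 4. In morulae they were 0.264 to 0.300 CPM.

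The 3 DDT sperm libraries carried the signal evenly in most windows. The highest of them held a median of 41.3% of their summed CPM. DDT replicates 1 to 3 all exceeded both chosen control libraries in 144 of 159 windows. The choice itself raised this count, since it used the same libraries, and the share over all windows was not taken. In 41 windows each DDT replicate taken alone was at least 4 times K, which any value meets in the 5 of them with a K of 0. In 36 of the 41, K was above 0 and every DDT replicate had more than 3 counts. In 14 windows 1 replicate held at least 66% of the sum, and 2 of these are also among the 41: replicate 1 in 7, replicate 2 in 5 and replicate 3 in 2. In 6 of the 14 that replicate would have met both thresholds with the other DDT replicates set to 0.

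**Figure D2:**
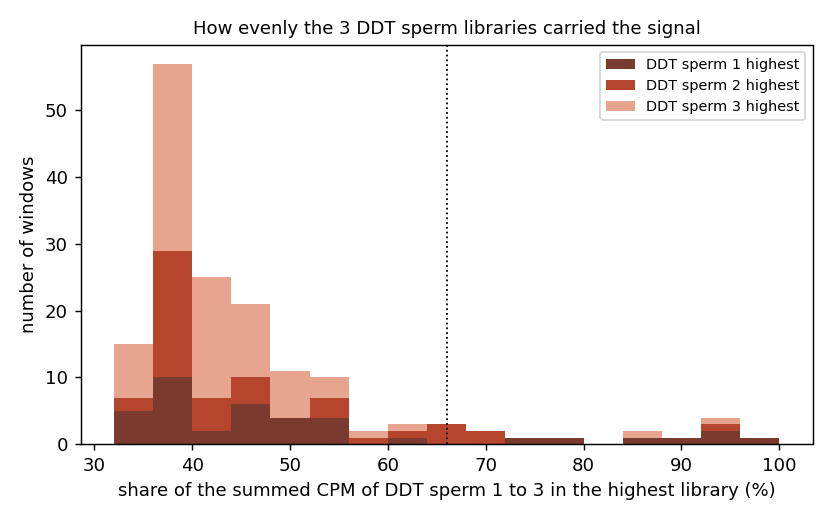
Number of windows by the share of the summed CPM of DDT sperm 1 to 3 that the highest of these libraries held, coloured by which library was highest. Most windows lie near the median of 41.3%, and 14 lie to the right of the dotted line at 66%.

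The windows with the largest ratios were of both kinds. In the chromosome 3 window that starts at 60962001, control sperm replicates 1 to 3 had 0 counts and DDT sperm replicates 1 to 4 had 84, 75, 93 and 2. The 3 deep DDT libraries were high and alike, and replicate 4 was at the level of the controls. D was at least 82.4-fold above K, taking 3 counts over both chosen control libraries as the floor. In the chromosome 7 window that starts at 113596001, there were 0 control sperm counts in all 3 libraries, while DDT sperm had 31, 22, 28 and 20, at least 26.5-fold higher by the same floor. Here the shallow replicate 4 was also high.

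Other large ratios rested on 1 or 2 libraries. At 28274001 to 28275000 of chromosome 13, DDT sperm had 90, 0, 0 and 0 counts and control sperm 0, 2 and 13. At 270616001 to 270617000 of chromosome 1, DDT sperm had 1, 2, 79 and 2 counts and control sperm 0, 0 and 1. Among DDT libraries, replicate 1 alone was high in the first and replicate 3 alone in the second. In the first, control replicate 3 was at 0.428 CPM, against 0.804 CPM in DDT replicate 1. At 7648001 to 7649000 of chromosome 15, DDT sperm had 44, 0, 63 and 0 counts with none in control sperm. The window at 33925001 to 33926000 of chromosome 13 had 90, 3, 3 and 10 counts in DDT sperm and 2, 2 and 14 in control sperm, so that outside replicate 1 the lineages overlapped.

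Most windows adjoined no other window of the set. They formed 148 runs of adjoining windows, of which 139 were single windows, 8 had 2 windows and 1 had 4. The run of 4 spanned 60962001 to 60966000 of chromosome 3, where the libraries of control sperm and of morulae had few counts. Summed over it, DDT sperm replicates 1 to 3 had 219, 206 and 257 counts and control sperm 8, 8 and 1. DDT replicate 4 had 3 counts, where the level of its 3 group members would give 66.5 at its depth. Morulae were low in both lineages, with 16, 14 and 9 counts in control and 9, 4 and 5 in DDT libraries. Next to the run, at 60966001 to 60967000, control sperm had 49, 63 and 5 counts and DDT sperm 38, 26, 32 and 3, which overlap.

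**Figure D3:**
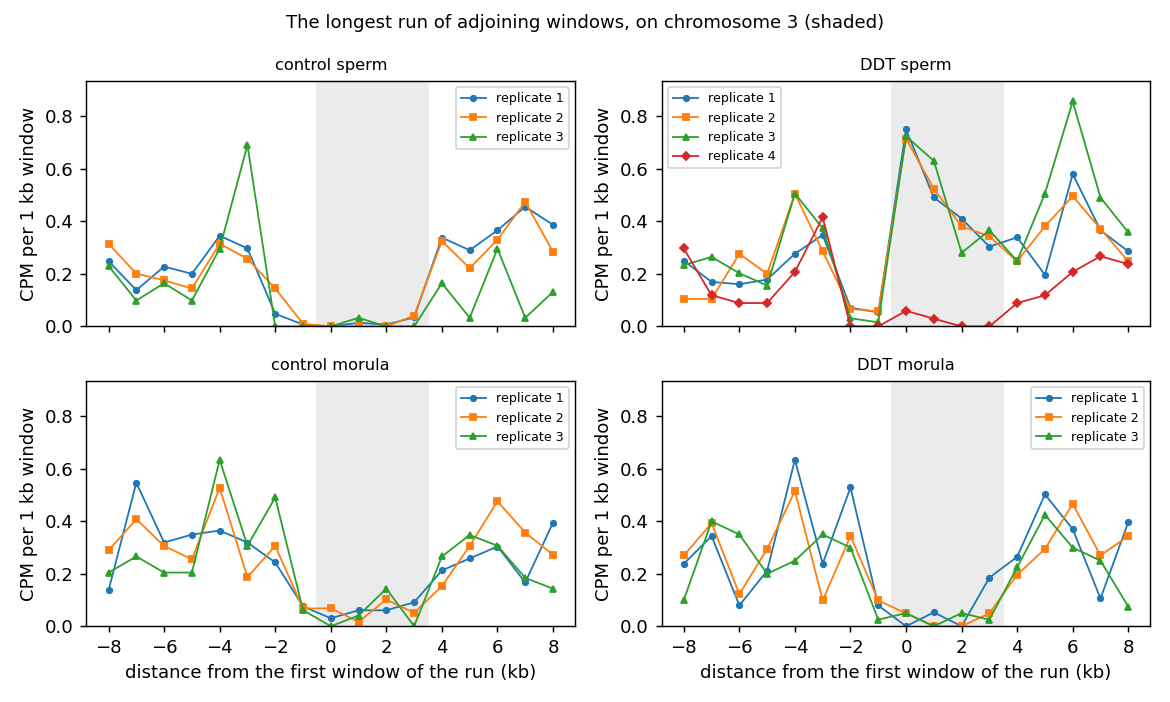
CPM per 1 kb window along the run of 4 windows on chromosome 3 (shaded) and the 8 kb before its first window and up to 8 kb after it, by library in 4 panels on 1 scale. Within the shading DDT sperm 1 to 3 have signal, while DDT sperm 4, control sperm and all 6 morula libraries are low.

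The other 3 runs named here had 2 windows each. At 101775001 to 101777000 of chromosome 5, DDT sperm had 461, 403, 80 and 4 counts and control sperm 80, 59 and 5. DDT replicates 1 and 2 were high, and replicate 3 had the same count as control replicate 1. Morulae had 40, 24 and 29 counts in control and 28, 23 and 28 in DDT libraries. The first window of the run at 26736001 of chromosome 19 had 58, 47, 90 and 6 counts in DDT and 21, 24 and 1 in control sperm. At 15644001 to 15645000 of chromosome 2, DDT sperm had 80, 65, 127 and 47 counts and control sperm 10, 10 and 38. At 1.25 CPM control replicate 3 was above all 3 chosen DDT libraries (0.620 to 0.989 CPM), and DDT replicate 4 was at 1.40 CPM, so in this window the shallow pair was high whatever the lineage.

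Some runs lay near each other. Of the 159 windows, 36 had another run within 100 kb, in 14 clusters. The same share for other sets of windows was not taken, so this count has no background beside it. The cluster with the most windows spanned 94 kb at 33925001 to 34019000 of chromosome 13, with 5 separate windows. It was singled out after its values were seen. DDT sperm replicate 1 had 365 counts over them and replicates 2 to 4 had 50, 58 and 48. Control sperm had 34, 42 and 60. Among the choosing libraries, DDT replicate 1 alone was high. The shallow pair was high for its depth in both lineages. The mean level of DDT replicates 1 to 3 would give 47.0 counts in replicate 4. Control replicate 3, the shallowest library, had more counts than either deep control library. On chromosome 19 windows at 26675001 to 26738000 (4 windows) and 27023001 to 27122000 (3 windows) were carried by all of DDT sperm replicates 1 to 3, with 222, 204 and 319 counts in the first cluster against 53 and 93 in control replicates 1 and 2.

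By length, chromosome 19 had the most windows, 12 or 19.3 per 100 Mb, followed by chromosome 20 with 12.5, chromosome 13 with 11.4 and chromosome 12 with 9.48. Chromosomes 6 and 4 had the fewest, at 2.03 and 2.71 per 100 Mb. All 159 windows made up 0.00607% of the windows of chromosomes 1 to 20. The counts are small and rest in part on clusters within 100 kb. Chromosome 19 had clusters of 4, 3 and 2 windows, chromosome 20 of 2 and 2, and chromosome 13 held 5 of its 13 windows in 1 cluster. Of the 159 windows, 7 (4.40%) lay within 2 Mb of a chromosome end, against 3.05% of all windows of chromosomes 1 to 20. A window without a count in any of the 13 libraries lay within 5 kb of 25 of them (15.7%), against 7.88% of all windows that held counts.

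The difference between D and K was smaller beside the windows. The choice itself favours this, since it used D and K and chosen neighbours were left out. In the windows 1 kb to the left and right of the 159, leaving out those that were themselves chosen, D had medians of 0.175 and 0.176 CPM and K of 0.153 and 0.128 CPM. D was more than 2 times K in 38 and 45 of 148 such neighbours, and 4 kb away in 12 and 17 of 158. At 10 kb away it was so in 11 and 8 of 159, and the share over all windows was not taken. Around the windows the sperm medians were lower than 10 kb away. In the shallow pair the chosen window stood above its neighbours in both lineages alike, with medians of 0.165 CPM against 0.0987 on either side in control replicate 3 and 0.178 against 0.119 in DDT replicate 4. Morula medians were nearly flat, from 0.226 to 0.301 CPM within 10 kb in the 2 lineages.

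**Figure D4:**
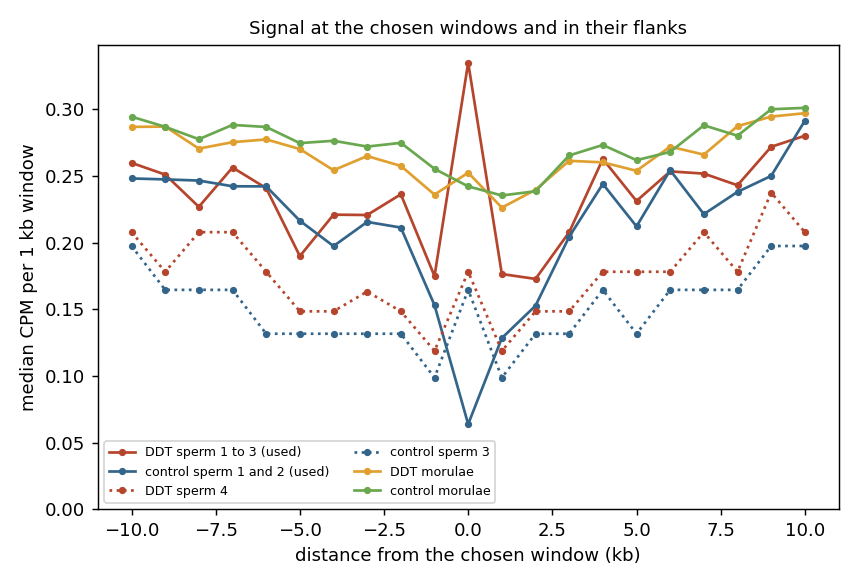
Median CPM of the chosen windows (distance 0) and of unchosen windows up to 10 kb away, for the libraries used for the choice (solid red and blue), the shallow sperm libraries (dotted) and the morula groups. At distance 0 the chosen libraries part to 0.335 and 0.0638 CPM, as the choice required. The shallow sperm libraries and the morulae of the lineages stay together there.

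The first question put to libraries outside the choice was whether the windows were also higher in DDT sperm replicate 4 than in control sperm replicate 3. With 1 library a lineage there is no test. DDT was above control in 91 of the 154 windows with a count in the pair (59.1%), against 49.7% of all windows. At 5 counts or more in the 2 libraries together, 126 windows could be compared. DDT was at least 2-fold higher in 34 of them (27.0%), against 12.4% of all windows, and at least 2-fold lower in 22 (17.5%), against 10.5%. Excess over the background was thus present on both sides and larger on the higher side. The 95% counting interval of the ratio, which covers counting error only, lay above 1 in 12 of 126 windows (9.52%), against 2.64% of all windows, and below 1 in 6 (4.76%), against 2.96%. The median log2 difference was 0.18 over the 159 windows and 0 over all windows of chromosomes 1 to 20, on the log2(CPM + 0.05) scale. In 70 of 126 windows the upper bound of the interval was under 4, the fold that defined them. This bound depends on the counts in the pair, and the share over all windows was not taken. Among windows with 20 counts or more in the pair, DDT was at least 2-fold higher in 13 of 49 (26.5%), against 3.9% of all such windows, and at least 2-fold lower in 2 (4.08%), against 4.35%. Within the 36 windows where K was above 0 and each deep DDT library was at least 4 times K with more than 3 counts, replicate 4 was at least 2-fold above control replicate 3 in 8 of 30 with enough counts and at least 2-fold below it in 5.

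In the shallow pair the direction recurred in the windows given next. They were named for a large D over K, or for a small p in a fit, described below, that includes this pair. The pair thus had a part in naming some of them, and the intervals cover counting error only. On chromosome 7 the window at 113597001 to 113598000, which adjoins the one described above, had 73, 37, 63 and 29 counts in DDT sperm and 11, 24 and 2 in control sperm, and DDT replicate 4 was 13.1-fold above control replicate 3 (interval 3.31 to 113). At 113596001 it had 20 counts against 0, a ratio of at least 4.45 by the lower bound of its interval. At 115170001 to 115171000 of the same chromosome, DDT sperm had 200, 112, 137 and 102 counts and control sperm 28, 29 and 26, a ratio in the shallow pair of 3.54 (2.28 to 5.67). In CPM control replicate 3 was at 0.856, against 0.193 and 0.150 in control replicates 1 and 2. DDT replicate 4 was at 3.03 CPM, against 1.07 to 1.79 CPM in DDT replicates 1 to 3. Both libraries of the shallow pair were thus above the deep libraries of their lineage. At 17816001 to 17817000 of chromosome 3 the ratio in the shallow pair was 6.96 (3.16 to 18.1), with 102, 94, 105 and 54 counts in DDT and 49, 19 and 7 in control sperm. In all 4 windows every DDT sperm library was above every control sperm library. This held for 51 of the 159 windows, against 2.01% of all windows, a share that the choice itself raised, since it used 5 of the 7 libraries.

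The second question was whether the lineages differed over all 8 unused libraries, with tissue as a term of the fit. By edgeR's quasi-likelihood test with Benjamini-Hochberg adjustment, 0 of 138 windows with enough counts passed an adjusted p of 0.05 in either direction, as did 0% of the 2532932 windows tested, and DESeq2 also passed 0. The other 21 windows held under 40 counts in these libraries. At an unadjusted p under 0.05, edgeR had 7 of the 138 higher (5.07%, against 2.12% of all windows) and 0 lower (against 2.01%), while DESeq2 had 4 higher (against 0.878%) and 0 lower (against 0.765%). Fitted log2 differences, DDT over control, had a median of 0.11 over the 138 windows and 0.01 over all windows, and ran from -0.90 to 1.41, with standard errors of 0.16 to 0.69. In 135 of the 138 windows the difference plus 1.96 standard errors stayed under a log2 of 2, or 4-fold, and in 88 under a log2 of 1, or 2-fold. The fit gives a single difference for both tissues, and 6 of its 8 libraries are morulae. These limits therefore do not bound the difference in sperm alone, where the 4-fold of the choice was set. They were not counted over all windows. With either library of the sperm pair left out, the tissue term fits the remaining sperm library exactly, and the fit rests on morulae alone. The median was then 0.04 without control sperm replicate 3 and 0.03 without DDT sperm replicate 4, against 0.11 with the pair. At an unadjusted p under 0.05 by edgeR, the count lower did not stay at 0 with some morula libraries left out. There were 11 higher and 4 lower without DDT morula replicate 3, and 10 higher and 3 lower without DDT morula replicate 1.

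The windows of smallest p with DDT higher drew on different libraries. At 16790001 to 16791000 of chromosome 4, morulae had 21, 6 and 6 counts in control and 19, 18 and 9 in DDT libraries, and the sperm pair had 2 and 8. Control morula replicate 1, at 0.319 CPM, was above DDT morula replicate 3 at 0.225 CPM, so the groups overlapped. The log2 difference was 1.17 (SE 0.42, edgeR adjusted p = 1). The window of highest signal, at 17079001 to 17080000 of chromosome 12, had 1.22, 1.10 and 1.18 CPM in control sperm and 4.53, 4.79, 4.81 and 1.48 CPM in DDT sperm. DDT replicate 4 was thus near the controls. Morulae were at 2.60 ± 0.460 CPM (SD, n = 3) in control and 3.50 ± 0.648 CPM (n = 3) in the DDT lineage, and the log2 difference was 0.44 (SE 0.16).

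Of the chromosome 7 windows, that at 113597001 had the largest fitted difference of those named, 1.41 (SE 0.51, edgeR adjusted p = 1). It was 0.63 with either library of the sperm pair left out, where the fit rests on morulae alone. In the morula fit it was 0.62 (SE 0.66), and its morulae had 3, 7 and 7 counts in control and 8, 2 and 8 in DDT libraries, which overlap. The window at 115170001 had 17, 19 and 18 counts in control and 14, 10 and 13 in DDT morulae, a morula log2 difference of 0.02 (SE 0.40), and that at 17816001 of chromosome 3 had 14, 12 and 15 against 14, 4 and 13. In all 3 windows the morula libraries of the lineages overlapped. Morulae did not overlap at 27781001 to 27782000 of chromosome 20, where they had 14, 10 and 8 counts in control and 13, 18 and 12 in DDT libraries, or 0.182 ± 0.0267 against 0.362 ± 0.0725 CPM (SD, n = 3 each) while the sperm pair had 4 and 8 counts. Windows of chromosome 7 at 31674001 to 31675000 and 43777001 to 43778000 followed, with log2 differences of 1.05 (SE 0.53) and 0.82 (SE 0.42). Control replicate 3 and DDT replicate 4 had 1 and 3 counts in the first. In the second they had 5 and 2, or 0.165 and 0.0594 CPM, so the sperm pair leaned the other way. Its morula log2 difference was 1.10 (SE 0.43).

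Windows that leaned the other way were fewer and had larger p. The window at 28274001 of chromosome 13, where replicate 1 was the only high DDT sperm library, had a log2 difference of -0.86 (SE 0.46, edgeR adjusted p = 1). At 23894001 to 23895000 of chromosome 12, DDT sperm had 72, 66, 117 and 0 counts and control sperm 24, 35 and 6, and morulae had 32, 38 and 29 counts in control and 14, 16 and 22 in DDT libraries. DDT replicate 4 was the lowest of all sperm libraries there, and the log2 difference was -0.55 (SE 0.33). For the windows that start at 49517001 on chromosome 4 and 145255001 on chromosome 3, the differences were -0.73 (SE 0.46) and -0.82 (SE 0.53).

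The third question was whether embryos made with sperm of the DDT lineage were higher in these windows than control embryos. No such difference was detected. The mean of DDT morulae was above that of control morulae in 80 of 159 windows (50.3%), against 48.3% of all windows, and the median log2 difference of the means was 0.003 over the 159 windows and 0 over all. It was under 1.5-fold either way in 137 windows. Its quartiles were -0.23 and 0.26 over the 159 windows and -0.24 and 0.20 over all. All 3 DDT morulae were above all 3 control morulae in 7 windows (4.40%), against 4.37% of all windows, and below them in 4 (2.52%), against 5.64%. Of 137 windows with enough counts, edgeR passed 0 in either direction, as it passed 0% of the 2568322 windows tested. DESeq2 also passed 0 of the 137, and passed 9 windows of the whole table (0.00035%), all higher in DDT. At an unadjusted p under 0.05, edgeR had 6 windows higher (4.38%, against 2.2% of all) and 0 lower (against 2.26%), and DESeq2 4 higher (against 0.902%) and 0 lower (against 0.802%). Without control morula replicate 3 edgeR had 2 higher and 0 lower, and without DDT morula replicate 1 it had 3 higher and 3 lower. The fitted difference plus 1.96 standard errors was under 4-fold in 132 of the 137 windows and under 2-fold in 90. In the authors' deposited table for morulae, 0 of 98 windows with a value had an adjusted p under 0.05, against 9.44e-05% of all windows.

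**Figure D5:**
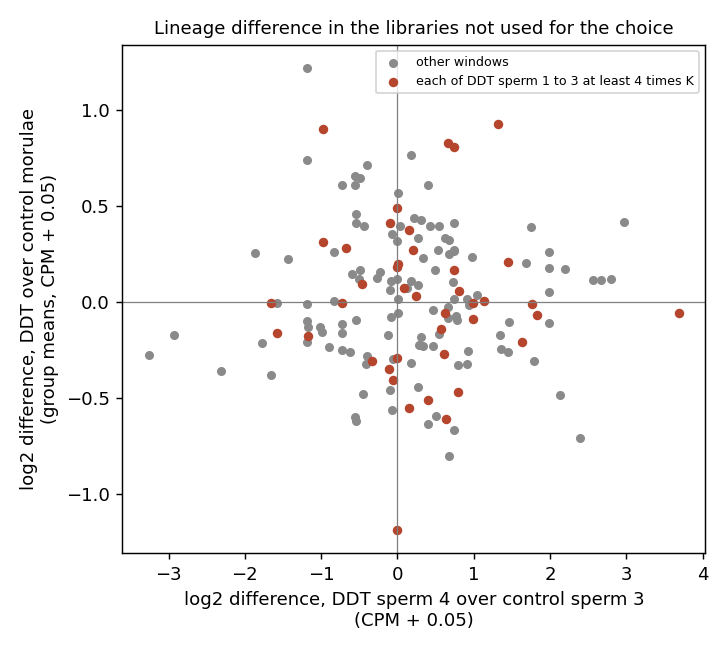
Log2 difference of DDT over control in the shallow sperm pair (horizontal) and in morulae (vertical) for the 159 windows, with the 41 in which each deep DDT sperm library was at least 4 times K in red (5 of them with a K of 0). The medians are 0.18 and 0.003, and no window combined a ratio of at least 2 in the sperm pair with DDT morulae all above control morulae.

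The few windows without overlap in morulae, singled out after their values were seen, were unlike each other in sperm. At 3244001 to 3245000 of chromosome 20, morulae had 4, 8 and 1 counts in control and 6, 9 and 13 in DDT libraries, a log2 difference of 1.65 (SE 0.63, edgeR adjusted p = 1). In sperm this window rested on DDT replicate 3, with 8, 4, 74 and 1 counts in DDT and 3, 4 and 4 in control libraries. At 17079001 of chromosome 12 and 16790001 of chromosome 4, which had small p in the fit of 8 libraries, the morula groups overlapped. At 60964001 to 60965000 of chromosome 3, within the run of 4, control morulae had 4, 6 and 7 counts and DDT morulae 0, 0 and 2, while deep DDT sperm libraries had 46, 40 and 36 counts and control sperm 1, 0 and 0.

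A last description concerns windows near 0 in the control lineage, taken as at most 3 counts in each library. There were 8 such windows in control sperm (5.03%, against 5.51% of all windows of chromosomes 1 to 20), and 3 of them were near 0 in control morulae too. In all 6 morula libraries 4 windows were near 0 (2.52%, against 5.17%). These 3 were at 16368001 to 16369000 of chromosome 5, 43139001 to 43140000 of chromosome 8 and 7648001 of chromosome 15. DDT morulae were also near 0 in each, with 2, 1 and 0 counts, 0, 2 and 1 counts, and 0, 0 and 0 counts. DDT sperm had 21, 42, 2 and 0 counts in the first and 69, 4, 5 and 4 in the second, so that in all 3 at least 1 deep DDT sperm library was near its controls. Signal thus appeared in only some DDT sperm libraries and in no embryo library above the floor. DDT sperm replicate 4 had at most 3 counts in 58 of the 159 windows, and control sperm replicate 3 did in 37 of those 58. In DDT replicate 4, 3 counts are worth 0.0891 CPM, below the 0.2 CPM that every D reached. The share over all windows was not taken, and the part of depth was not tested.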

How the data were processed

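MeDIP-seq libraries of rat sperm and morulae were analysed from 2 deposited tables with raw read counts per 1000 bp window. Tools listed by the submitters' processing notes are Trimmomatic, FastQC, SAMtools, Bowtie2 and edgeR, with no version, and their build is Rnor_6.0. Whether duplicate reads were removed is not given in the sources used here. The deposited adjusted p-values of the authors were used only where named, and 13 columns of RPKM were not used. The other 2 tables arrange the same libraries by tissue and were not used here. No genome of this build was used, so genes, CpG content and sequences were not analysed here.

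Members and windows to name were chosen with earlier results of these data known. The share of 66%, the 100 kb clusters and the windows of even DDT replicates with more than 3 counts each were set after seeing the data. Named windows were those of largest ratio (6), smallest p with DDT higher (8) or lower (4) in the fit of 8 libraries, the 4 longest runs, up to 6 near 0 in the control lineage in both tissues, and those at the threshold, 1 per run.

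Counts as deposited by the authors were fitted over all windows whose summed count reached 5 for each library of the comparison, with R 4.3.3 and edgeR 4.0.16 (trended dispersion, TMM scaling, glmQLFTest, two-sided). DESeq2 1.42.0 was the alternative test. The standard error is the effect divided by the root of its F. Means, CPM and exact binomial (Clopper-Pearson) intervals used Python 3.11.15 and scipy 1.17.1, with a pseudocount of 0.05 CPM for log2 values of means. The floor was 3 counts. Precision follows the totals of 30386626 to 193750804 counts. Both floors and intervals hold for counting error alone, as reads lacking molecular identifiers need not be separate molecules. The fits were tested on simulated data.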

Additional observations from a re-analysis of the deposited data

Results flagged for a closer look

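Of 24 named windows, 7 had a DDT sperm library far from the other 3, where the gap to its nearest neighbour divided by the range of the 4 CPM values exceeded Dixon's 95% critical value for 4 samples. Chance flags about 1 in 20 groups of 4, but that rate does not hold here, because replicates 1 to 3 chose the windows and several were named for values in them. The flags are a description. In 5 windows a single library was high. At 28274001 of chromosome 13 it was replicate 1 (gap share 1.000, counts of 90, 0, 0 and 0), and at 43139001 of chromosome 8 also replicate 1 (0.861, counts of 69, 4, 5 and 4). At 270616001 of chromosome 1 it was replicate 3 (0.917, counts of 1, 2, 79 and 2), and at 16790001 of chromosome 4 also replicate 3 (0.965, with 0.241, 0.238, 0.343 and 0.237 CPM). At 17816001 of chromosome 3 it was replicate 4 (0.881, with 0.911, 0.896, 0.818 and 1.60 CPM). In 2 windows replicate 4 was low, at 60962001 of chromosome 3 (0.949, with 0.750, 0.715, 0.724 and 0.0594 CPM) and at 17079001 of chromosome 12 (0.917, with 4.53, 4.79, 4.81 and 1.48 CPM). The part of depth in these gaps was not tested.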

How the results depend on the processing

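No alternative passed any window of the set in the fit of 8 libraries or of morulae. The counts were 0 higher and 0 lower under library-size scaling, DESeq2 size factors, DESeq2, other minimum counts, without the most abundant windows, for members by 3 or 8 times K, with each library left out (0 to 0) and with the replicate block. Same-numbered morulae did not deviate together (correlations of -0.011, 0.000 and -0.004), so the numbers do not pair them. At an unadjusted p under 0.05 the replicate block gave 6 morula windows higher and 0 lower, and 6 higher and 1 lower over the 8 libraries. With 1 morula library left out these counts ran from 2 to 7 higher and 0 to 3 lower in morulae, and from 7 to 11 higher and 0 to 4 lower over the 8 libraries. Membership depended on the rule and on the libraries: 945 windows by 3 times K, 27 by 8 times, 389 and 43 with a minimum D of 0.1 and 0.5 CPM, and 83 with all 7 sperm libraries, of which 44 were among the 159. Leaving out 1 of the 5 choosing libraries gave 162 to 652 windows, with 652 without control sperm replicate 1 and 543 without replicate 2. Of these 127 and 112 were among the 159. In the shallow sperm pair 17 of 126 windows were at least 4-fold higher (13.5%, against 3.62% of all windows) and 12 at least 4-fold lower (9.52%, against 2.76%), and 13 of 49 were at least 2-fold higher at 20 counts or more. Its median log2 difference was 0.23 and 0.12 at pseudocounts of 0.01 and 0.2 CPM. The morula median ranged from -0.064 to 0.077 with 1 library left out, the former without DDT morula replicate 1 and the latter without control morula replicate 3. Near 0 in control sperm were 16 windows at up to 0.05 CPM, and in control sperm and morulae 0 windows at up to 1 count. In the shallow pair 33 of the 159 windows held under 5 counts.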

Other observations

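Outside chromosomes 1 to 20 the same thresholds took 20 windows of the X and 2 of the Y chromosome. DDT sperm replicate 4 was above control sperm replicate 3 in 12 of these 22, and the mean of DDT morulae was above that of control morulae in 11. The shares over all windows of X and Y were not taken, so these counts have no background beside them. The window of largest D among them, at 20299001 to 20300000 of X, had 318, 309, 353 and 18 counts in DDT sperm and 110, 126 and 23 in control sperm, and 102, 78 and 91 counts in control against 65, 64 and 50 in DDT morulae.

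Where control sperm replicate 1 or 2 had at least 10 counts, these 2 libraries differed at least 10-fold from each other in 8 of 114 of the windows, against 0.161% of all such windows. The choice used both libraries. The windows given here were picked after their values were seen. At 73809001 to 73810000 of chromosome 8, control sperm had 5, 394 and 19 counts and DDT sperm 561, 434, 458 and 37. Control replicate 2 was there at 2.03 CPM and replicate 1 at 0.0345 CPM, and morulae were at 109, 112 and 119 counts in control and 95, 62 and 66 in DDT libraries. At 36934001 to 36935000 of chromosome 17, control sperm had 1, 37 and 0 counts and DDT sperm 65, 66, 0 and 5. In both windows control replicate 2 was above DDT replicate 4 in CPM.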
